A study of Mus musculus with 9 samples.

Results

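Transcriptomes of mouse embryonic fibroblasts (MEFs) lacking the H3K9 methyltransferases G9a and Glp were compared with those of the wild-type line from which they were made. All 3 libraries of the G9a/Glp mutant (G9Gl) and all 3 wild-type (WT) libraries were used, chosen by genotype from the sample labels, which is 6 of the 9 libraries of the series. Of 47937 genes in the count table, 15540 had enough reads to be tested and are the genes described here. The remaining 3 libraries are of MEFs deficient for Suv39h1 and Suv39h2 (S1S2), and they entered the fit for its estimate of the spread and a few side comparisons. The WT cells are a clone named E1c with a conditional allele of Eset1 (Setdb1), a further H3K9 methyltransferase, and a tamoxifen-inducible CreERT2. Per the study's methods, all 3 genotypes share this allele, and an inducible Cre construct with puromycin selection was put back after gene disruption. Whether tamoxifen was given to the cultures used for RNA is not given in the sources used here. G9Gl is 1 clone, H7, obtained from E1c by co-transfection of Cas9 vectors against G9a and Glp and chosen because both proteins were undetectable on western blots. Genotype and clone therefore cannot be told apart in any comparison. The 3 libraries of a genotype were taken as separate cultures of 1 line, so p-values measure the spread between cultures.

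G9a, encoded by Ehmt2, and Glp, encoded by Ehmt1, act as a heterodimer that places mono- and dimethylation on lysine 9 of histone H3 in euchromatin. This mark is associated with silencing of genes in cell types where they are not used, among them germline genes, lineage-specific genes and some imprinted genes. In fibroblasts and other cells, G9a and Glp have also been linked to restraint of interferon-inducible genes.

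Read depth was similar between the genotypes, with 30177597 to 32157623 counts in WT and 28412155 to 30808254 in G9Gl. Levels are given as CPM, read counts relative to the library total after scaling by TMM factors. A gene was called when its Benjamini-Hochberg adjusted p from the quasi-likelihood F test of edgeR was at most 0.01 and its fold change at least 2, a rule that called 10.2% of tested genes. The 15 fibroblast markers summed to 10930 to 12370 CPM in WT and 8805 to 9674 CPM in G9Gl, and none was at 0 in any library. Blood markers summed to 6.50 to 7.28 CPM in all 6 libraries, with Adgre1, Fcgr1, Tyrobp, Cd3e and Hbb-bs among those at 0 throughout, and none of their 3 tested genes was called. Pluripotency markers summed to 5.06 to 6.39 CPM, with Pou5f1, Sox2, Zfp42, Utf1, Tdgf1 and Fgf4 at 0, and neither tested gene was called. In bulk RNA, fewer cells of a type and less RNA per cell cannot be told apart.

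Both targeted genes kept transcripts at a lower level. Ehmt2 was at 129, 132 and 114 CPM in WT and 57.4, 53.5 and 51.9 CPM in G9Gl (log2 change -1.20 ± 0.078 SE, adjusted p 9.16e-12), and Ehmt1 was at 102, 106 and 103 CPM in WT and 51.8, 50.3 and 48.6 CPM in G9Gl (log2 change -1.04 ± 0.030 SE, adjusted p 2.24e-12). For each gene all 3 G9Gl libraries lay below all 3 WT libraries. The reads counted here do not show whether the remaining transcripts encode protein. The other 4 H3K9 methyltransferase genes were not called, with Setdb1 at 53.5 and 47.7 CPM, Suv39h1 at 108 and 103 CPM, Suv39h2 at 33.9 and 29 CPM and Setdb2 at 29 and 28.4 CPM in WT and G9Gl. No gene among 27 tested readers and silencing partners of H3K9 methylation was called (median log2 fold change -0.08). Cbx5, which encodes the heterochromatin protein HP1 alpha, was at 876 and 828 CPM, and the corepressor Trim28 at 377 and 364 CPM. Dnmt1, the maintenance DNA methyltransferase, stood at 507 and 485 CPM and Lmna, encoding lamin A/C, at 448 and 459.6 CPM. Of 13 H3K9 demethylase genes (median -0.04) 1 fell, Hr, from 9.43 ± 0.391 to 3.34 ± 0.0695 CPM (mean ± SD, n = 3 per genotype, as throughout; log2 change -1.49 ± 0.038 SE, adjusted p 1.61e-09).

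Of all tested genes 6.77% were called higher in G9Gl (1052 genes) and 3.4% lower (528 genes). Libraries of the 2 genotypes did not overlap for 1050 of the higher and all 528 lower genes, while they did not overlap for 52.8% of all tested genes. Among higher genes 628 rose at least 4-fold and 304 at least 16-fold, with a median log2 fold change of 2.53. Among lower genes 250 fell at least 4-fold and 92 at least 16-fold, with a median of -1.92. Leaving out genes that passed the filter on low counts only through G9Gl or only through WT, 266 of 646 higher genes rose at least 4-fold and 70 at least 16-fold (median 1.78), and 202 of 461 lower genes fell at least 4-fold and 69 at least 16-fold (median -1.78). The median over all tested genes was -0.01.

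Most called genes were weakly expressed in WT, and a gene near 0 in WT has little room to fall. The filter on low counts would not have passed 665 of the tested genes without the G9Gl libraries, and 406 of these were called higher, nor 343 without the WT libraries, of which 67 were called lower. Such genes had to differ if they were high in 1 genotype alone, so counts over lists that hold many of them say little by themselves, and their number is given beside each list that holds any. Of the 14875 genes that passed without G9Gl, 4.34% were called higher and 3.55% lower. Of all tested genes under 1 CPM in WT, 22.2% were higher and 5.21% lower in G9Gl, and of the 2231 among them that passed without G9Gl 10.7% and 6.77%. Between 1 and 10 CPM the shares were 7.57% and 7.94%, between 10 and 100 CPM 1.84% and 1.22%, and over 100 CPM 0.69% and 0.604%. The higher genes together took 0.845 to 0.874% of CPM in the WT libraries and 2.80 to 2.91% in G9Gl, and the lower genes went from 0.56 to 0.574% to 0.185 to 0.189%. Protein-coding genes made up 889 of the higher and 432 of the lower genes. Long intergenic non-coding RNAs were higher in 14.6% of 342 tested genes, but in 14 of the 294 that passed without G9Gl.

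**Figure D1:**
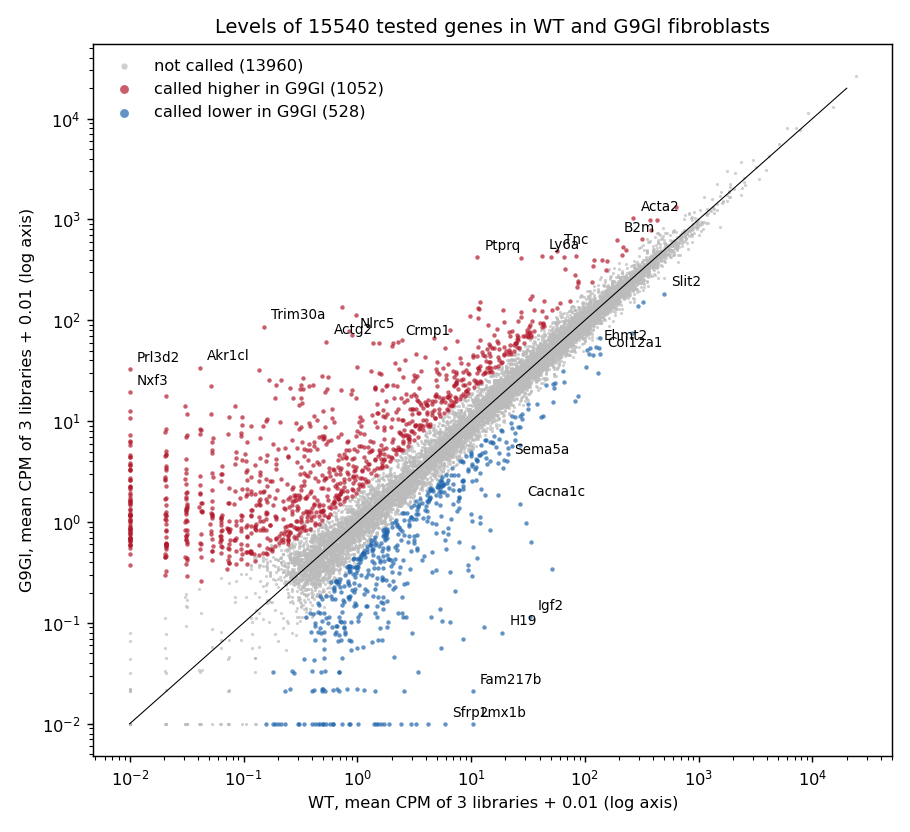
Mean CPM of each of 15540 tested genes in WT (horizontal) and G9Gl (vertical), both on log axes after adding 0.01, with called genes in red (1052 higher) and blue (528 lower). The called genes lie mostly at the lower left, where WT levels are under 10 CPM, and the diagonal line marks equal levels.

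The 8 called genes with the largest gains in CPM have varied roles. Acta2, encoding smooth muscle actin, was at 273, 279 and 248 CPM in WT and 1004, 1023 and 1092 CPM in G9Gl (log2 change 1.96 ± 0.064 SE, adjusted p 5.70e-15). Thbs1, a matricellular glycoprotein, rose from 633 ± 100.1 to 1315 ± 78.4 CPM and reached a log2 change of 0.94, under the limit, without WT-3. Fbln2, a fibulin of elastic fibres, rose from 377 ± 13.8 to 997 ± 18.6 CPM. Tnc, encoding tenascin C, rose from 57 ± 4.52 to 488 ± 28.1 CPM (log2 change 3.10 ± 0.082 SE, adjusted p 1.25e-16). Msln, encoding mesothelin, rose from 433 ± 17.9 to 992 ± 20.2 CPM and B2m, the light chain of MHC class I, from 190.3 ± 16.7 to 632 ± 50.1 CPM. Rnf213, encoding a large ubiquitin ligase, rose from 382 ± 24.7 to 794 ± 106 CPM, with a log2 change of 0.94 without G9Gl-1. Ptprq, a receptor phosphatase best known from hair cells, was at 11.8, 11.1 and 11.2 CPM in WT and 445, 394 and 419.7 CPM in G9Gl (log2 change 5.21 ± 0.058 SE, adjusted p 1.07e-18). All 3 G9Gl libraries exceeded all 3 WT libraries for each of these 8 genes.

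The 8 called genes with the largest losses in CPM included matrix and secreted proteins. Slit2, a ligand of Robo receptors, fell from 496 ± 15.5 to 184 ± 8.72 CPM and Fbn2, encoding fibrillin 2, from 293 ± 11.4 to 137 ± 6.5 CPM. Hmgcs1, an enzyme of cholesterol synthesis, fell from 327 ± 24.2 to 151 ± 16 CPM (log2 change -1.12 ± 0.11 SE, adjusted p 3.09e-10). Ptx3, a secreted pentraxin, was at 135, 122 and 133 CPM in WT and 35.4, 28.6 and 26.9 CPM in G9Gl (log2 change -2.10 ± 0.13 SE, adjusted p 2.44e-13). Col12a1, a fibril-associated collagen, fell from 137 ± 3.35 to 46.1 ± 4.8 CPM. Gas1, a membrane protein of Hedgehog signalling, fell from 132 ± 2.89 to 53 ± 1.97 CPM, with 15.4% of its 75-base words found in other annotated genes. Adgrl2, an adhesion G protein-coupled receptor, fell from 118 ± 1.61 to 45.7 ± 1.1 CPM, and the unnamed gene AC149090.1 from 258 ± 2.16 to 75.2 ± 2.88 CPM. None of these 8 genes had overlapping libraries.

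Interferon-inducible genes rose in several lists. Of 55 tested interferon antiviral effectors 39 rose and none fell (median log2 fold change 1.73), and 1 of those higher passed only through G9Gl. Trim30a, a member of the Trim family that dampens inflammatory signalling, was at 0.0615, 0.231 and 0.129 CPM in WT and 99.9, 80.8 and 78.7 CPM in G9Gl (log2 change 9.24 ± 0.36 SE, adjusted p 1.09e-16). Ifi27 was at 11.9, 10.5 and 13.3 CPM in WT and 161, 145 and 151 CPM in G9Gl (log2 change 3.67 ± 0.11 SE, adjusted p 1.56e-16). Xaf1, an interferon-inducible regulator of apoptosis, was at 2.28, 1.62 and 2.55 CPM in WT and 44.5, 32.8 and 36.5 CPM in G9Gl (log2 change 4.14 ± 0.23 SE, adjusted p 9.17e-14). For each of these genes the lowest G9Gl library was far above the highest WT library. Oas1a, an oligoadenylate synthetase that senses double-stranded RNA, rose from 0.128 ± 0.0637 to 32.4 ± 5.69 CPM, with 47.6% of its 75-base words shared with other genes, so its reads could be split among close copies. Isg15, a ubiquitin-like modifier, rose from 5.99 ± 0.314 to 29 ± 6.35 CPM (log2 change 2.27 ± 0.18 SE, adjusted p 4.75e-10) and Ifit1, which binds viral RNA, from 10.4 ± 0.93 to 43.1 ± 8.89 CPM (log2 change 2.06 ± 0.18 SE, adjusted p 1.67e-10). Levels in this list differed widely, and Mx1, a dynamin-like antiviral GTPase, rose from 0.349 ± 0.213 to 1.82 ± 0.489 CPM (log2 change 2.35 ± 0.53 SE, adjusted p 3.41e-05).

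The nucleic acid sensors behaved similarly. Of 21 tested sensors 11 rose (median 1.26), 2 of them having passed only through G9Gl. Ifih1, encoding the double-stranded RNA sensor MDA5, was at 13.7, 13.5 and 15.2 CPM in WT and 99.5, 86.3 and 84.2 CPM in G9Gl (log2 change 2.67 ± 0.094 SE, adjusted p 4.78e-15). Aim2, a sensor of cytosolic DNA, was at 2.18, 3.21 and 3.9 CPM in WT and 26.7, 23.9 and 23.7 CPM in G9Gl (log2 change 3.00 ± 0.25 SE, adjusted p 5.97e-12). The Aim2-related genes Ifi203 and Ifi204 rose from 0.509 ± 0.258 to 19.4 ± 2.81 CPM and from 2.97 ± 0.561 to 17.8 ± 2.93 CPM. Ddx58, encoding RIG-I, rose from 45.3 ± 4.12 to 109 ± 15.7 CPM, and Tlr7, an endosomal receptor for single-stranded RNA, from 0.183 ± 0.0839 to 4.25 ± 0.299 CPM.

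Receptors and transcription factors of interferon signalling act upstream of these genes. Of 19 tested 3 rose and none fell (median 0.26), which is 15.8% against 6.77% of all tested genes, and the list summed to 748 to 769 CPM in WT and 900 to 957 CPM in G9Gl. Among them were Irf7 (from 1.78 ± 0.444 to 22.5 ± 5.64 CPM) and Irf9 (from 17.1 ± 1.23 to 59.7 ± 8.14 CPM), both themselves known interferon-inducible genes. Irf9, the DNA-binding subunit of the factor that acts downstream of type I interferon receptors, was at 17.5, 15.8 and 18.1 CPM in WT and 68.9, 53.4 and 56.9 CPM in G9Gl (log2 change 1.799 ± 0.13 SE, adjusted p 1.11e-11). Irf7, a driver of interferon genes, was at 1.88, 1.29 and 2.16 CPM in WT and 29, 19.14 and 19.3 CPM in G9Gl (log2 change 3.65 ± 0.29 SE, adjusted p 5.31e-11). Neither gene had overlapping libraries.

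All 16 tested interferon-inducible GTPases rose (median 4.35), 5 of which passed the filter only through G9Gl. These genes encode guanylate-binding and immunity-related GTPases that act on vacuoles of intracellular pathogens. Gbp3 was at 6.03, 5.65 and 5.87 CPM in WT and 61.9, 49.4 and 47.4 CPM in G9Gl (log2 change 3.17 ± 0.12 SE, adjusted p 3.49e-14). Tgtp1 and Tgtp2 rose from 0.159 ± 0.052 to 25.7 ± 4.95 CPM and from 0.264 ± 0.118 to 17.1 ± 2.07 CPM, but 77.2% and 81.4% of their 75-base words were shared, as were 98.3% of those of Gvin1, which rose from 0.366 ± 0.231 to 22.4 ± 3.63 CPM. The smallest rise was that of Irgm1, from 43.5 ± 1.5 to 87.2 ± 10.3 CPM (log2 change 1.00 ± 0.10 SE, adjusted p 2.24e-09), which came under the 2-fold limit at a log2 change of 0.91 without G9Gl-1. Schlafen genes, regulators of growth and of virus replication, rose in 5 of 6 tested, 3 of the 5 having passed only through G9Gl. Slfn8 was at 0.246, 0.0331 and 0.322 CPM in WT and 12.8, 7.11 and 9.24 CPM in G9Gl (log2 change 5.55 ± 0.64 SE, adjusted p 2.89e-10), and Slfn2 had 0 counts in every WT library against 14.8, 11.6 and 11.5 CPM in G9Gl and was higher by at least 132-fold against a floor of 3 counts per library.

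Of 21 tested genes of MHC class I antigen presentation 13 rose and none fell (median 1.36). Nlrc5, the transactivator of MHC class I genes, was at 0.861, 0.893 and 0.935 CPM in WT and 79.3, 67.9 and 68.2 CPM in G9Gl (log2 change 6.32 ± 0.080 SE, adjusted p 1.53e-17). The classical heavy chain H2-K1 was at 80.9, 81.2 and 87.1 CPM in WT and 478, 414 and 418 CPM in G9Gl (log2 change 2.39 ± 0.076 SE, adjusted p 1.86e-15), and H2-D1 was at 69.1, 64.1 and 63.5 CPM in WT and 465, 394 and 412 CPM in G9Gl (log2 change 2.69 ± 0.080 SE, adjusted p 2.19e-16). No library of 1 genotype fell within the range of the other for these 3 genes. H2-Q4 rose from 7.58 ± 0.732 to 63 ± 8.27 CPM, with 20.7% of its 75-base words shared. The peptide transporter subunits Tap1 and Tap2 rose from 6.99 ± 0.163 to 31.7 ± 5.62 CPM and from 6.81 ± 0.343 to 14.5 ± 0.727 CPM, and the immunoproteasome subunits Psmb8 and Psmb9 from 0.512 ± 0.116 to 8.76 ± 1.2 CPM and from 0.256 ± 0.116 to 1.62 ± 0.187 CPM.

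Chemokines and cytokines moved both ways, with 6 of 18 tested genes higher (1 passed only through G9Gl) and 3 lower (median 0.40). Ccl5 rose from 1.09 ± 0.104 to 10.3 ± 2.07 CPM, Ccl9 from 4.94 ± 0.117 to 25.6 ± 2.2 CPM, Cxcl10 from 9.39 ± 0.966 to 37 ± 1.22 CPM and Ccl2 from 22.7 ± 1.55 to 78.8 ± 1.42 CPM, all encoding attractants of leukocytes. Cxcl12, a chemokine of stromal cells, fell from 18.8 ± 4.49 to 7.91 ± 1.62 CPM (log2 change -1.25 ± 0.26 SE, adjusted p 5.75e-06).

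The S1S2 libraries offer a mutant background for these lists, since 13.1% of all tested genes were called between G9Gl and S1S2 by the same rule. That comparison uses the same G9Gl libraries as the one with WT. G9Gl was higher than S1S2 for 15 of 16 GTPases, 10 of 21 antigen presentation genes, 5 of 6 Schlafen genes and 6 of 21 sensors, and lower for none of them. For the 55 effectors G9Gl was higher for 21 and lower for 5. In S1S2 libraries Ifih1 was at 68.8 ± 2.21 CPM and Trim30a at 1.95 ± 0.331 CPM.

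Promoter windows of some of these genes are printed because members of the interferon and antigen lists rose together. Only higher genes of these lists whose window held the core described below were eligible. That every printed window holds it was therefore fixed by this choice. The windows come from RefSeq on GRCm38.p6, which gives 250 bases before and 50 after each gene start. They were searched on both strands for GAAANNGAA, the core of the interferon-stimulated response element, which is in 8.53% of 32544 distinct RefSeq promoter windows. Capitals mark the match nearest the gene start, and each line is the 30 bases around it on the strand named. The windows of Gbp3 and Isg15 hold 2 and 3 matches, and further matches are left in lower case.
Trim30a: caggaactgaGAAAAAGAAactaaagaact
Gbp3: agggatctggGAAATAGAAactgaaactgt
Igtp: tctaggaactGAAACTGAAagctgttcggg
Isg15: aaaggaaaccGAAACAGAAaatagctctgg
B2m: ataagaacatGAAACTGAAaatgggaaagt
Trim34a: gcagagaaaaGAAACTGAAactccaaacca
The Trim30a window lies at chr7:104465210-104465239 on the plus strand and the Gbp3 window at chr3:142559995-142560024 on the minus strand. Igtp lies at chr11:58199512-58199541 (plus), Isg15 at chr4:156200865-156200894 (minus), B2m at chr2:122147538-122147567 (plus) and Trim34a at chr7:104244457-104244486 (minus). Relative to the gene start the capitalised core begins at position -35 in Trim30a, -38 in Gbp3, -34 in Igtp, -66 in Isg15, -139 in B2m and 11 in Trim34a. A match is a description of the letters and shows neither binding nor a cause. Only 66.2% of tested genes with a symbol had a window, so no share over sets of genes is given. Of the 87 higher genes of the interferon and antigen lists 62 had a window, and those without the core are not printed.

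**Figure D2:**
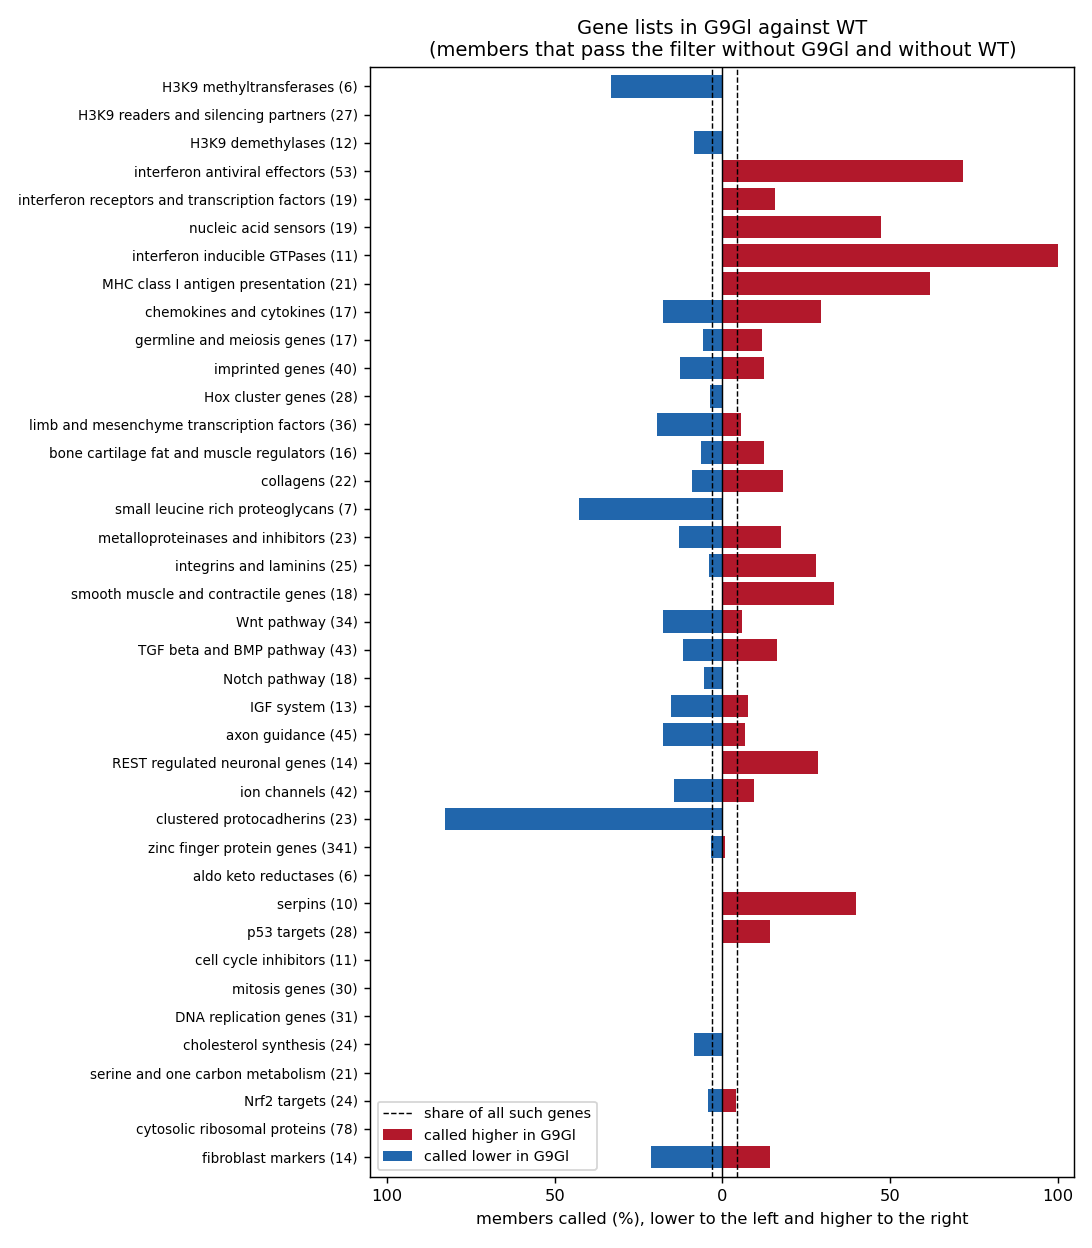
Share of the members that passed the filter without the G9Gl libraries and without the WT libraries (number in brackets, lists with at least 5) called lower (blue, to the left) or higher (red, to the right) in G9Gl against WT, with dashed lines at the shares of all 14636 such genes (3.15% and 4.41%). Among the lists drawn, GTPases have the largest share higher, 11 of 11, and clustered protocadherins the largest share lower, 19 of 23.

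Beyond shifts in level, 108 genes were switched on, here meaning that each was called, had at most 3 counts in every WT library and reached at least 1 CPM in every G9Gl library. By the same rule reversed, 28 genes were switched off. Of the genes switched on 87 were protein coding, 36 had no count in any WT library, and they lay on 20 chromosomes. Of the genes switched off 23 were protein coding and 12 had no count in any G9Gl library. Folds of these genes are lower bounds against the floor where WT had no count, and otherwise ratios with an interval that covers counting error only. More than 10% of 75-base words were shared with another gene for 28 of the genes switched on and 3 of those switched off.

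Genes of a placental family were among those switched on. Prl3d2, encoding a placental lactogen, had 0 counts in all WT libraries and 32.7, 33.3 and 33.1 CPM in G9Gl and was higher by at least 344-fold. It shares 54.4% of its 75-base words with relatives, so reads may be split among them. Of the prolactin family on chromosome 13, 9 of 26 genes were tested. All 9 passed the filter only through G9Gl, so that all were higher follows largely from the filter and is given as a description, and 5 were switched on. Prl2c2, encoding a proliferin, rose from 0.301 ± 0.174 to 20.6 ± 2.12 CPM (log2 change 6.09 ± 0.39 SE). Prl2c5 reached 3.93, 4.09 and 4.6 CPM (198-fold [95% counting interval 54.4 to 1640.04] higher) and Prl3d3 2.98, 3.2 and 4.08 CPM (322-fold [95% counting interval 57.4 to 12777]). The pituitary hormone gene Prl itself had 0, 0 and 0 CPM in WT and 0.842, 1.62 and 1.01 CPM in G9Gl. In S1S2, Prl3d2 was at 0.0467 ± 0.047 CPM. The other 17 members of the family were not tested for want of reads.

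None of the tested germline and meiosis genes was switched on. Tcp11x2 and Nxf3, both X-linked, were among the genes switched on, on a chromosome with 7.81% of tested genes higher. Tcp11x2, an X-linked relative of the testis gene Tcp11, was at 0.0923, 0 and 0.0322 CPM in WT and 22.4, 21.3 and 22.6 CPM in G9Gl, 519-fold [95% counting interval 202 to 1907] higher. Nxf3, an X-linked RNA export factor expressed in testis, had 0 counts in WT and 17.7, 19.6 and 21.1 CPM in G9Gl and was higher by at least 203-fold. Of the germline and meiosis list 3 of 19 tested genes rose (15.8%, against 6.77% of all tested genes), 1 of them having passed only through G9Gl, and 1 fell (median -0.14), and 55 more were not tested for want of reads. Without G9Gl-1 or G9Gl-2, 2 genes of this list were lower. Ddx25, a testis RNA helicase, rose from 0.317 ± 0.132 to 6.22 ± 0.204 CPM (log2 change 4.26 ± 0.33 SE), and Tdrd7, a Tudor protein of germ granules, from 22.5 ± 1.14 to 45.8 ± 2.59 CPM (log2 change 1.02 ± 0.063 SE, adjusted p 2.70e-10). Tdrd7 was under the 2-fold limit, at log2 changes of 0.98 to 0.995, without WT-2 or G9Gl-1 or with library size alone. Slc2a3, a glucose transporter also used in other tissues, rose from 14.4 ± 0.95 to 47.6 ± 5.73 CPM, while Syce2, a component of the synaptonemal complex, fell from 10.1 ± 1.67 to 3.58 ± 0.0465 CPM. Of 4 tested Mage genes only Magea10 was called, at 0, 0 and 0 CPM in WT and 1.19, 0.575 and 1.01 CPM in G9Gl, and it passed the filter only through G9Gl. Rhox5 was the only tested homeobox gene of the X-linked Rhox cluster and rose to 10.6, 10.7 and 11.3 CPM from 0.0308, 0.132 and 0.0967 CPM (log2 change 6.92 ± 0.30 SE, adjusted p 8.55e-14), with S1S2 at 1.5 ± 0.135 CPM.

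Other genes switched on in G9Gl have varied roles. Akr1cl, a member of the aldo-keto reductases, was at 0.0615, 0.0331 and 0 CPM in WT and 33.1, 33.2 and 35.5 CPM in G9Gl, 1062-fold [95% counting interval 363 to 5153] higher, and 3 of 10 tested genes of this family rose (median 0.56), all 3 having passed only through G9Gl. Slfn2, described above, and Oas1g (0, 0.0331 and 0 against 21.9, 14.7 and 16.9 CPM) stand for the interferon-inducible group, as does Phf11b (0, 0.0331 and 0.0322 against 13.1, 10.7 and 11.7 CPM), a relative of the listed gene Phf11d. Afp, encoding fetal alpha-fetoprotein, had 0 counts in WT and 10.6, 10.2 and 11.1 CPM in G9Gl (a rise of at least 111-fold), and Cyp7a1, the rate-limiting enzyme of bile acid synthesis, 0 and 5.05, 3.63 and 4.5 CPM (at least 45.8-fold). Both are chiefly genes of liver. Ctla4, an inhibitory receptor of T cells, had 0 counts in WT and 1.82, 1.54 and 1.5 CPM in G9Gl (at least 16.9-fold). Casp1, the inflammatory caspase that matures interleukin 1, had 0 counts in WT and 3.33, 3.12 and 3.43 CPM in G9Gl (at least 34.3-fold), and its neighbours Casp4 and Casp12 rose from 7.12 ± 1.46 to 27.6 ± 2.45 CPM and from 26.2 ± 3.09 to 52.5 ± 1.42 CPM. The non-coding RNAs Platr3 (4.49, 7.15 and 5.78 CPM) and 1700019E08Rik (5.72, 6.86 and 6.46 CPM) had no count in WT, while 4930461G14Rik had 0.0615, 0.0331 and 0 CPM in WT and 6.91, 7.11 and 8.32 CPM in G9Gl. 1700049E17Rik2 (0.0308, 0 and 0.0645 against 9.58, 7.76 and 7.7 CPM) shares all of its 75-base words with other genes, so its own level is uncertain.

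Epithelial genes rose in part. Of 5 tested epithelial markers (median 2.53) 3 rose, Krt14 (0, 0 and 0 against 3.83, 4.24 and 5.09 CPM), Krt19 (from 2.28 ± 0.454 to 13.3 ± 3.19 CPM) and Grhl2 (from 0.011 ± 0.0191 to 0.812 ± 0.175 CPM), of which 2 passed only through G9Gl. Krt14, a keratin of basal epidermis, was at least 45.7-fold higher. The summed level of the epithelial list was 5.38 to 6.46 CPM in WT and 18.4 to 25.4 CPM in G9Gl, with Krt5, Krt18, Cldn3 and Ovol1 among those at 0 in all 6 libraries. The part of these markers in other results was not tested. Sprr genes, which encode small proline-rich proteins of the cornified envelope, were higher in 6 of 8 tested, the 6 having passed only through G9Gl, so this is given as a description. Sprr2a3 was at 0.277, 0.165 and 0.419 CPM in WT and 4.42, 6.54 and 5.16 CPM in G9Gl (log2 change 4.20 ± 0.34 SE). Of 3 tested endothelial markers (median 2.47) Cdh5, encoding VE-cadherin, which passed only through G9Gl, rose from 0 to 1.51, 0.503 and 1.01 CPM, while Cldn5, Tie1 and Emcn were at 0 throughout and the list summed to 0.99 to 1.17 CPM in WT and 1.47 to 3.51 CPM in G9Gl.

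Serpins, inhibitors of serine proteases, rose in 9 of 16 tested genes and fell in 1 (median 1.84), and 5 of those higher passed only through G9Gl and the lower gene only through WT. Serpinb9b was at 10.8, 12.3 and 11.2 CPM in WT and 126, 131 and 136 CPM in G9Gl (log2 change 3.52 ± 0.064 SE, adjusted p 1.53e-17). Serpinb9, an inhibitor of granzyme B, rose from 27.6 ± 3.46 to 119.7 ± 8.39 CPM, Serpinb6b from 0.533 ± 0.128 to 20.9 ± 0.664 CPM and Serpinb9g from 0.0852 ± 0.0673 to 7.66 ± 0.689 CPM. Few chemosensory receptors were detected at all, with 8 of 1354 tested, of which 4 rose, 3 having passed only through G9Gl, and 1 fell (median 2.23). The vomeronasal receptor gene Vmn2r79 had 0.0615, 0 and 0 CPM in WT and 13.4, 14 and 14.7 CPM in G9Gl (a rise of 658-fold [95% counting interval 182 to 5438]), and its neighbour Vmn2r78 0 and 2.53, 2.23 and 3.07 CPM. Olfr56, which lies among interferon-inducible GTPases, rose from 0.0545 ± 0.0503 to 1.16 ± 0.416 CPM, and Vmn2r29 fell from 0.408 ± 0.218 to 0.0117 ± 0.0203 CPM with 75.9% of its words shared.

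**Figure D3:**
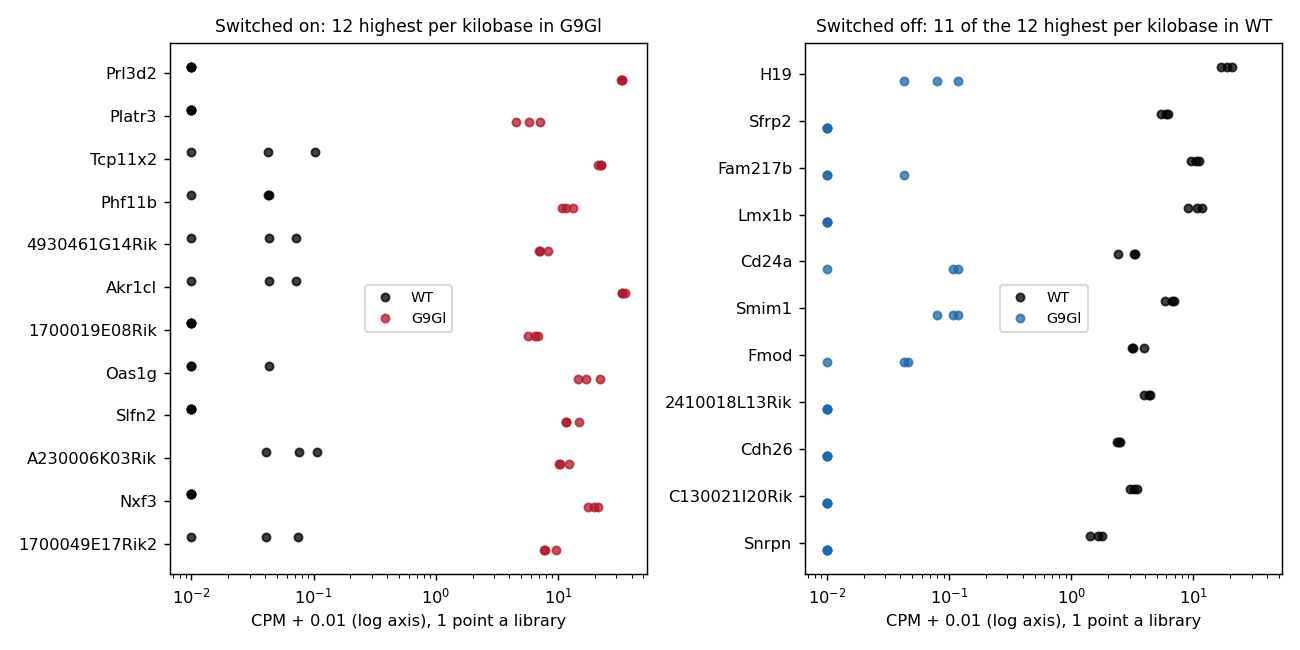
CPM plus 0.01 on a log axis for each library (1 point each) of the 12 genes switched on with the highest G9Gl level per kilobase (left) and of 11 of the 12 switched off with the highest WT level per kilobase (right). Points at the left edge are libraries with 0 counts, and the genotypes are separated by more than 10-fold for each gene shown.

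Imprinted loci held several of the genes switched off. H19, a maternally expressed non-coding RNA at chromosome 7, 142575529 to 142578143 of GRCm38, was at 18.7, 20.5 and 16.8 CPM in WT and 0.0702, 0.108 and 0.0326 CPM in G9Gl, 270.2-fold [95% counting interval 124 to 737] lower in G9Gl. Its neighbour Igf2, the paternally expressed growth factor, was at 30.9, 34.6 and 33.6 CPM in WT and 0.0702, 0.144 and 0.0979 CPM in G9Gl (log2 change -8.26 ± 0.18 SE, adjusted p 2.82e-16), although 60.7% of its 75-base words are shared with overlapping annotations. The antisense gene Igf2os fell from 4.45 ± 0.647 to 0.105 ± 0.0392 CPM, so both partners of this reciprocally imprinted pair fell. In S1S2, H19 was at 0.551 ± 0.0404 CPM and Igf2 at 7.74 ± 1.04 CPM. Farther along the same chromosome arm Kcnq1 rose from 0.116 ± 0.0927 to 1.88 ± 0.342 CPM and Tspan32 from 0.800 ± 0.0915 to 3.1 ± 0.148 CPM, while Kcnq1ot1 (361 and 379.6 CPM), Cdkn1c (20.9 and 19.99 CPM) and Cd81 (202 and 257 CPM) were not called.

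A second imprinted domain of chromosome 7, the region of Snrpn, changed in both directions. Snrpn, encoding a splicing protein, was at 1.63, 1.79 and 1.42 CPM in WT and had no count in any G9Gl library, at least 15.5-fold lower. Snhg14, the non-coding host transcript of the locus, likewise went from 1.63, 1.36 and 1.32 CPM to 0 counts, and so did Gm38393 (1.51, 1.29 and 1.39 CPM in WT). All 3 overlap or lie close together, so their reads may not be independent. Nearby, the non-coding A230006K03Rik was at 0.0308, 0.0661 and 0.0967 CPM in WT and 10.2, 12.2 and 10.4 CPM in G9Gl and A230057D06Rik rose from 0 ± 0 to 0.675 ± 0.0943 CPM. Ube3a, which is silenced by the antisense transcript in neurons, was at 274 and 238 CPM in WT and G9Gl (log2 change -0.20 ± 0.059 SE, adjusted p 0.00165) and was not called. Atp10a rose from 32.5 ± 0.516 to 74.5 ± 2.37 CPM (log2 change 1.20 ± 0.030 SE, adjusted p 1.13e-12), and Mkrn3 (2.28 and 3.47 CPM) and Peg12 (12.52 and 14 CPM) were not called. Over all 42 tested imprinted genes 6 rose (1 passed only through G9Gl) and 5 fell (median 0.07). Either share was 12.5% of the 40 that passed without G9Gl and without WT, against 4.41% and 3.15% of all such genes.

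Developmental regulators were among the genes switched off, though only 1 of the 37 tested limb and mesenchyme transcription factors was. Lmx1b, the homeodomain factor of dorsal limb identity, was at 10.6, 11.8 and 9.06 CPM in WT and had no count in G9Gl, at least 101-fold lower, and the antisense gene beside it, C130021I20Rik, went from 3.45, 3.01 and 3.26 CPM to 0 counts. Sfrp2, a secreted modulator of Wnt ligands, went from 5.38, 5.98 and 6.12 CPM to 0 counts (at least 56.2-fold lower). Tbx1, a T-box factor of the pharyngeal arches, was at 2.71, 2.28 and 2.67 CPM in WT and 0, 0 and 0.0326 CPM in G9Gl, 223-fold [95% counting interval 39.6 to 8827] lower. Smarca2, encoding the chromatin remodelling ATPase BRM, was at 7.88, 8.46 and 9.12 CPM in WT and 0.0351, 0.108 and 0.0326 CPM in G9Gl, 147-fold [95% counting interval 62.9 to 455] lower. Bmp3, a ligand that antagonises other bone morphogenetic proteins, went from 2.25, 2.78 and 3.84 CPM to 0 counts.

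Of 37 tested limb and mesenchyme transcription factors 7 fell and 3 rose, 1 of the latter having passed only through G9Gl (median -0.28). Among the 36 that passed without G9Gl and without WT, 5.56% rose and 19.4% fell, against 4.41% and 3.15% of all such genes. Osr1 was at 23.3, 24.8 and 20.7 CPM in WT and 5.86, 5.5 and 5.71 CPM in G9Gl (log2 change -2.01 ± 0.080 SE, adjusted p 5.80e-12), Prrx2 fell from 17.6 ± 0.546 to 6.71 ± 0.351 CPM and Eya1 from 18.3 ± 0.808 to 8.09 ± 0.618 CPM. Alx1, a homeodomain factor of the craniofacial mesenchyme, rose from 0.362 ± 0.0287 to 4.07 ± 0.167 CPM (log2 change 3.47 ± 0.065 SE, adjusted p 3.54e-09). Of 29 tested Hox genes 2 fell, Hoxb13 (from 4.87 ± 0.200 to 1.52 ± 0.546 CPM) and Hoxd8 (from 0.501 ± 0.0432 to 0.0351 ± 0.0608 CPM), and none rose (median -0.33). Of these 2, 1 passed the filter only through WT, and 1 of the 28 others was lower, or 3.57% against 3.15% of all such genes. Regulators of bone, cartilage, fat and muscle included 3 rises (1 passed only through G9Gl) and 2 falls (1 passed only through WT) among 18 tested genes (median -0.06), or 4 falls without G9Gl-1. The 16 that passed without G9Gl and without WT had 12.5% higher and 6.25% lower, against 4.41% and 3.15% of all such genes. Ebf1 rose from 2.99 ± 0.583 to 13 ± 0.609 CPM and the myogenic factor Myf6 from 0.022 ± 0.0382 to 0.624 ± 0.125 CPM, while Runx3 fell from 15.6 ± 2.29 to 6.07 ± 0.731 CPM and Cebpa, a driver of fat cell differentiation, from 0.68 ± 0.173 to 0.0661 ± 0.0859 CPM.

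Other genes switched off from high WT levels per kilobase have varied roles. Fam217b was at 9.51, 11 and 10.4 CPM in WT and 0, 0 and 0.0326 CPM in G9Gl, 897-fold [95% counting interval 161 to 35456] lower, and its neighbours Ppp1r3d and Cdh26 on chromosome 2 were switched off with it, from 1.51, 1.88 and 1.71 and 2.34, 2.45 and 2.51 CPM to 0 counts. Cd24a, a cell surface glycoprotein, was at 3.29, 3.27 and 2.38 CPM in WT and 0, 0.108 and 0.0979 CPM in G9Gl, 43.3-fold [95% counting interval 19.6 to 119] lower. Smim1 was at 6.64, 5.88 and 6.86 CPM in WT and 0.0702, 0.108 and 0.0979 CPM in G9Gl, 70.4-fold [95% counting interval 35.5 to 164] lower. In every one of these genes the WT libraries lay within a narrow range and the G9Gl libraries were at or near 0. The non-coding 2410018L13Rik went from 4.28, 4.4 and 3.9 CPM to 0 counts, with 38.4% of its words shared.

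Extracellular matrix genes moved both ways. Small leucine-rich proteoglycans, which bind collagen fibrils and growth factors, fell in 5 of 9 tested genes and rose in none (median -1.05), and 2 of the 5 passed the filter only through WT. The summed level of the list went the other way, from 342 to 370 CPM in WT to 443 to 487 CPM in G9Gl, through the abundant Bgn, encoding biglycan, which went from 199 ± 34.7 to 368 ± 29 CPM (log2 change 0.89), under the 2-fold limit, and was called higher without WT-2. Dcn, encoding decorin, was at 7.2, 6.74 and 7.7 CPM in WT and 0.175, 0.287 and 0.131 CPM in G9Gl (log2 change -5.17 ± 0.25 SE, adjusted p 1.46e-10), and Fmod, encoding fibromodulin, at 3.91, 3.11 and 3.19 CPM in WT and 0, 0.0359 and 0.0326 CPM in G9Gl (148-fold [95% counting interval 40.7 to 1230.5] lower). Omd fell from 6.33 ± 1.57 to 2.18 ± 0.618 CPM and Prelp from 0.599 ± 0.155 to 0 ± 0 CPM. In S1S2, Dcn was at 2.18 ± 0.834 CPM, and G9Gl was lower than S1S2 for 2 members and higher for 2.

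Collagen genes rose in 6 and fell in 3 of 25 tested (median 0.48), of which 2 of those higher passed only through G9Gl and 1 of those lower only through WT. The 22 that passed without G9Gl and without WT had 18.2% higher and 9.09% lower, against 4.41% and 3.15% of all such genes. Col8a1, a short-chain collagen, was at 142, 146 and 134 CPM in WT and 399.98, 408 and 388 CPM in G9Gl (log2 change 1.51 ± 0.042 SE, adjusted p 1.09e-14), Col5a3 rose from 82 ± 8.64 to 282 ± 23.6 CPM and Col18a1, the source of endostatin, from 33 ± 4.47 to 89.5 ± 2.75 CPM. The abundant fibroblast collagens Col1a1 (3405 and 2506 CPM), Col1a2 (2395 and 2029.6 CPM) and Col3a1 (1527 and 844 CPM in WT and G9Gl) were not called. Of 23 tested matrix proteases and inhibitors 4 rose and 3 fell (median 0.38), with 1 lower without WT-1 or without G9Gl-1. Mmp2, a gelatinase, rose from 1.96 ± 0.515 to 8.65 ± 1.36 CPM, Mmp24 from 0.183 ± 0.0865 to 3.31 ± 0.575 CPM and Adamts6 from 17.6 ± 0.864 to 40.5 ± 1.53 CPM, whereas Adamts1 fell from 137 ± 17.6 to 66.9 ± 6.83 CPM (log2 change -1.03 ± 0.14 SE, adjusted p 9.14e-08), with log2 changes of -0.99 to -0.95, under the limit, without WT-1, WT-2 or G9Gl-1.

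Integrins and laminins, the receptors and ligands of basement membranes, rose in 9 of 27 tested genes and fell in 1 (median 0.29), 2 of those higher having passed only through G9Gl. The lower gene, Itgb4 (from 0.578 ± 0.156 to 0.175 ± 0.0665 CPM), was not called without WT-3 or G9Gl-3, and 2 genes were lower without WT-2. Lamb3 was at 1.51, 1.29 and 1.1 CPM in WT and 31.7, 31.5 and 32.1 CPM in G9Gl (log2 change 4.60 ± 0.13 SE, adjusted p 6.33e-16) and Lama3 rose from 0.0741 ± 0.0653 to 2.003 ± 0.322 CPM, both chains of epithelial laminin. Itga3, an integrin subunit that binds laminin, rose from 74.4 ± 8.52 to 154 ± 13.7 CPM, with a log2 change of 0.96, under the limit, without WT-3, and the leukocyte subunit Itgb2 rose from 1.3 ± 0.0893 to 5.03 ± 0.688 CPM.

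Contractile genes rose in 7 of 20 tested and fell in none (median 0.42), 1 having passed only through G9Gl. Besides Acta2, the enteric actin Actg2 was at 0.523, 0.562 and 0.483 CPM in WT and 59.6, 61.3 and 63.2 CPM in G9Gl (log2 change 6.86 ± 0.060 SE, adjusted p 1.53e-17). Myl9, a myosin light chain, was at 34.1, 34.2 and 31 CPM in WT and 157, 164 and 168 CPM in G9Gl (log2 change 2.30 ± 0.054 SE, adjusted p 1.09e-14) and Mylk, the kinase that phosphorylates it, rose from 5.2 ± 0.403 to 17.4 ± 0.994 CPM. Tagln, encoding transgelin, rose from 318 ± 36.9 to 645 ± 23.4 CPM, with 53.3% of its words shared. G9Gl was higher than S1S2 for 10 of the 20 genes and lower for none. Among fibroblast markers Thy1 rose from 4.98 ± 0.537 to 38.3 ± 2.48 CPM and Postn, encoding periostin, from 51.6 ± 2.8 to 126 ± 5.67 CPM, while Pdgfrb fell from 54 ± 4.81 to 21.4 ± 1.24 CPM and Pdgfra from 14.5 ± 1.58 to 4.02 ± 0.472 CPM. Dcn is also on this list, so 2 of 14 rose and 3 fell (median -0.23).

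Single ligands and inhibitors of signalling pathways changed. In the Wnt pathway 3 of 36 tested genes rose (1 passed only through G9Gl) and 7 fell (1 passed only through WT), with a median of -0.03. Among the 34 that passed without G9Gl and without WT, 5.88% rose and 17.6% fell, against 4.41% and 3.15% of all such genes. The ligand Wnt7b was at 12.8, 14.7 and 7.09 CPM in WT and 46, 62.5 and 56 CPM in G9Gl (log2 change 2.25 ± 0.35 SE, adjusted p 2.62e-09), the ligand Wnt5b fell from 3.33 ± 0.55 to 0.513 ± 0.155 CPM and the inhibitor Dkk2 from 7.66 ± 0.747 to 1.6 ± 0.483 CPM. Of 45 tested TGF beta and BMP pathway genes 9 rose (2 passed only through G9Gl) and 5 fell (median 0.06). Shares for the 43 that passed without both genotypes were 16.3% higher and 11.6% lower, against the same 4.41% and 3.15%. The receptor Bmpr1b rose from 1.67 ± 0.167 to 12.9 ± 0.323 CPM and Ltbp2, a latent TGF beta binding protein, from 1.48 ± 0.188 to 12.1 ± 1.22 CPM. The antagonists Chrdl1 and Grem1 fell from 17.7 ± 0.737 to 4.82 ± 0.366 CPM and from 109 ± 3.13 to 45.9 ± 6.08 CPM. Inhba, encoding a subunit of activin, rose from 11.3 ± 2.06 to 43.9 ± 7.15 CPM.

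In the IGF system 3 of 15 tested genes rose and 2 fell (median -0.07). Of the 3, 2 passed the filter only through G9Gl, and 1 of the 13 genes that passed without G9Gl rose, or 7.69% against 4.34% of all such genes. With Igf2, the other ligand Igf1 fell as well, at 28.1, 26.4 and 30.1 CPM in WT and 8.81, 12.9 and 9.63 CPM in G9Gl (log2 change -1.43 ± 0.17 SE, adjusted p 2.60e-09). The binding proteins Igfbp3 and Igfbp7 rose from 0.279 ± 0.0585 to 1.85 ± 0.143 CPM and from 0.011 ± 0.0191 to 0.45 ± 0.0795 CPM. Of 18 tested Notch genes only the ligand Jag2 was called, and it fell from 2.37 ± 0.197 to 0.845 ± 0.184 CPM (median 0.03).

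Neuronal genes bound by the repressor REST were another list with rises alone. Of 21 tested 10 rose and none fell (median 0.93), and 6 of the 10 passed only through G9Gl. Crmp1, a phosphoprotein of axon growth cones, was at 2.25, 2.38 and 2.22 CPM in WT and 56.6, 64 and 62.5 CPM in G9Gl (log2 change 4.74 ± 0.062 SE, adjusted p 1.88e-17). L1cam, a neural adhesion molecule, was at 1.05, 1.09 and 0.548 CPM in WT and 19.6, 20.04 and 21 CPM in G9Gl (log2 change 4.49 ± 0.29 SE, adjusted p 1.15e-13). Syn1, encoding synapsin, was at 0.338, 0.595 and 0.548 CPM in WT and 5.97, 6.11 and 7.83 CPM in G9Gl (log2 change 3.75 ± 0.25 SE, adjusted p 1.40e-10). The genotypes were separated for all 3 genes. Of the 10 genes 4 were switched on, among them Celsr3 and Stmn2.

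Axon guidance genes rose in 6, of which 3 passed only through G9Gl, and fell in 8 of 50 tested (median 0.01). Among the 45 that passed without G9Gl and without WT, 6.67% rose and 17.8% fell, against 4.41% and 3.15% of all such genes. Unc5c, a netrin receptor, was at 1.75, 2.08 and 2.16 CPM in WT and 56, 55.4 and 56.7 CPM in G9Gl (log2 change 4.81 ± 0.090 SE, adjusted p 1.58e-17), whereas Sema3e fell from 102 ± 2.3 to 34.7 ± 0.978 CPM and Sema5a from 20.8 ± 1.37 to 3.99 ± 0.495 CPM. Of 51 tested ion channel genes 9 rose, 5 having passed only through G9Gl, and 7 fell, 1 having passed only through WT (median -0.03). For the 42 that passed without both genotypes the shares were 9.52% higher and 14.3% lower, against the same 4.41% and 3.15%. Cacna1c, the pore of the L-type calcium channel, was at 25.3, 28.6 and 26.3 CPM in WT and 1.65, 1.29 and 1.6 CPM in G9Gl (log2 change -4.14 ± 0.12 SE, adjusted p 2.07e-15). Cacna1b, the pore of the N-type calcium channel, rose from 7.1 ± 0.464 to 22.4 ± 0.939 CPM.

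Clustered protocadherins, adhesion molecules that give neurons a cell surface identity, were the list with the largest share of falls. Of 26 tested genes 21 fell and none rose (median -2.54), and 2 of those lower passed only through WT. Pcdhb22 was at 9.81, 9.69 and 10.5 CPM in WT and 1.09, 1.04 and 1.44 CPM in G9Gl (log2 change -3.06 ± 0.14 SE, adjusted p 1.84e-11) and Pcdhb21 at 7.91, 6.71 and 8.02 CPM in WT and 1.44, 1.08 and 1.34 CPM in G9Gl (log2 change -2.55 ± 0.14 SE, adjusted p 5.23e-10), and Pcdhb19 fell from 3.83 ± 0.468 to 0.451 ± 0.103 CPM. The genotypes were separated in each. Among gamma genes Pcdhgb6 was at 10.4, 9.59 and 10.8 CPM in WT and 2.35, 2.33 and 2.91 CPM in G9Gl (log2 change -2.01 ± 0.11 SE, adjusted p 3.89e-10). The gamma transcripts share their constant exons, and the 13 called gamma genes share more than 10% of their 75-base words with other annotated genes, so their separate values are uncertain. Against S1S2 the clusters diverged, with G9Gl lower for 13 genes and higher for 7. Pcdhb22 was at 1.22 ± 0.229 CPM in S1S2 and Pcdhgb6 at 6.87 ± 0.693 CPM.

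Of zinc finger genes of the Zfp series 3 of 343 tested were higher and 13 lower, 1 of these having passed only through WT (median -0.10), or 0.875% and 3.79% against 6.77% and 3.4% of all tested genes. Zfp873 fell from 12.3 ± 0.294 to 5.73 ± 0.332 CPM, Zfp992 from 21 ± 2.71 to 5.4 ± 0.104 CPM and Zfp993 from 3.36 ± 0.578 to 0.536 ± 0.22 CPM, the last 2 in a block of relatives on chromosome 4 with shared words. Zfp105 rose from 0.551 ± 0.177 to 3.15 ± 0.469 CPM.

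Some called genes lay side by side. Runs of at least 3 neighbouring tested genes called in 1 direction numbered 69, of which 54 were higher and 15 lower, and they held 308 genes or 19.5% of those called. Runs were formed over all tested genes, so they include genes that passed the filter only through 1 genotype. Such genes were 406 of the higher and 67 of the lower genes, with all 9 tested Prl genes among them. A number of runs expected without clustering was not computed, so the runs and their directions are a description. Positions are from GENCODE M21 on GRCm38. The longest run held 13 lower gamma protocadherin genes on chromosome 18 from 37689828 to 37841873 (median log2 fold change -3.15), from Pcdhgb2 to Pcdhga12. It began after Pcdhga1 (0.31, not called) and stopped before the C-type genes Pcdhgc3 (-0.24), Pcdhgc4 (-0.06) and Pcdhgc5 (-0.38), none of them called.

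A run of 11 higher genes on chromosome 11 from 48826140 to 49135387 (median 4.71) joined Trim7 and the GTPase genes Irgm1, Tgtp1, Tgtp2 and Ifi47. It also held Gm5431, Gm12185, 9930111J21Rik1 and 9930111J21Rik2, the proteasome activator gene Psme2b, and Olfr56. The next gene, Zfp62, was not called (-0.03). A run of 11 on chromosome 15 from 74721204 to 75272235 (median 3.93) covered Ly6 genes, which encode small GPI-anchored surface proteins. Here Ly6a, encoding the stem cell antigen Sca-1, was at 38.9, 40.6 and 45.4 CPM in WT and 424, 419 and 446 CPM in G9Gl (log2 change 3.37 ± 0.072 SE, adjusted p 8.83e-17), Ly6c1 rose from 11.7 ± 1.41 to 129 ± 2.91 CPM and Ly6e from 119.6 ± 8.31 to 399.5 ± 15.7 CPM. Its other members were Them6, Lynx1, Gml, Gml2, I830127L07Rik, Ly6g, BC025446 and Ly6f, with BC025446 and Gml at 0 counts in WT. The run ended at Zfp41 (0.27, not called).

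On chromosome 17, 9 genes of the nonclassical MHC region from H2-T24 to Gm20478 rose between 36005695 and 36171805 (median 2.97), with H2-T22 at 39.2, 39.6 and 42.6 CPM in WT and 94.5, 93.1 and 97.4 CPM in G9Gl and H2-T23 at 7.998, 9.36 and 9.12 CPM in WT and 23, 21.7 and 23.4 CPM in G9Gl. Between them lay H2-Bl, H2-T-ps, H2-T10, Gm19684 and Gm8909, several with shared words, and H2-Bl, at 0.148 and 0.483 CPM in WT and G9Gl, lost its call whichever library was left out (adjusted p 0.0108 to 0.0568), as did Gm20478 without WT-1 (0.0128). On chromosome 7, 9 genes from Trim6 to Gm16464 rose between 104218793 and 104507849 (median 5.75), namely Trim34a, Trim5, Trim12a, Trim12c, Trim30c, Trim30a and Trim30d between those ends. Gm16464 was not called without WT-1 (adjusted p 0.0113). Trim12c was at 2.18, 1.95 and 2.74 CPM in WT and 38.9, 31 and 27.8 CPM in G9Gl and Trim30d at 0.308, 0.231 and 0.645 CPM in WT and 27, 19.6 and 22.2 CPM in G9Gl. On chromosome 11, 8 genes from Slfn8 to Gm11427 rose between 83002158 and 83260960 (median 6.52), including Slfn2, Slfn3, Slfn4, Slfn10-ps, Gm11425 and AI662270. Slfn9, the next gene, was at 90.3 and 172 CPM in WT and G9Gl and did not reach the 2-fold limit (0.93).

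Of the 69 runs, others included 8 genes around Serpinb9 on chromosome 13, 6 Prl genes on the same chromosome, 6 Aim2-like genes on chromosome 1 and the 6 Oas genes from Oas2 to Oas1a on chromosome 5. The Gbp genes formed a run of 5 on chromosome 3 and 1 of 4 on chromosome 5, and Psmb9, Tap1, Psmb8 and Tap2 a run of 4 on chromosome 17. Lower runs were the 8 Pcdhb genes from Pcdhb14 to Pcdhb22, 7 genes at Slit2 of which most are annotated within it, 6 genes around Zfp992 on chromosome 4, and H19 with Igf2 and Igf2os. Genes within 1 run can share sequence or overlap, so they are not independent observations.

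**Figure D4:**
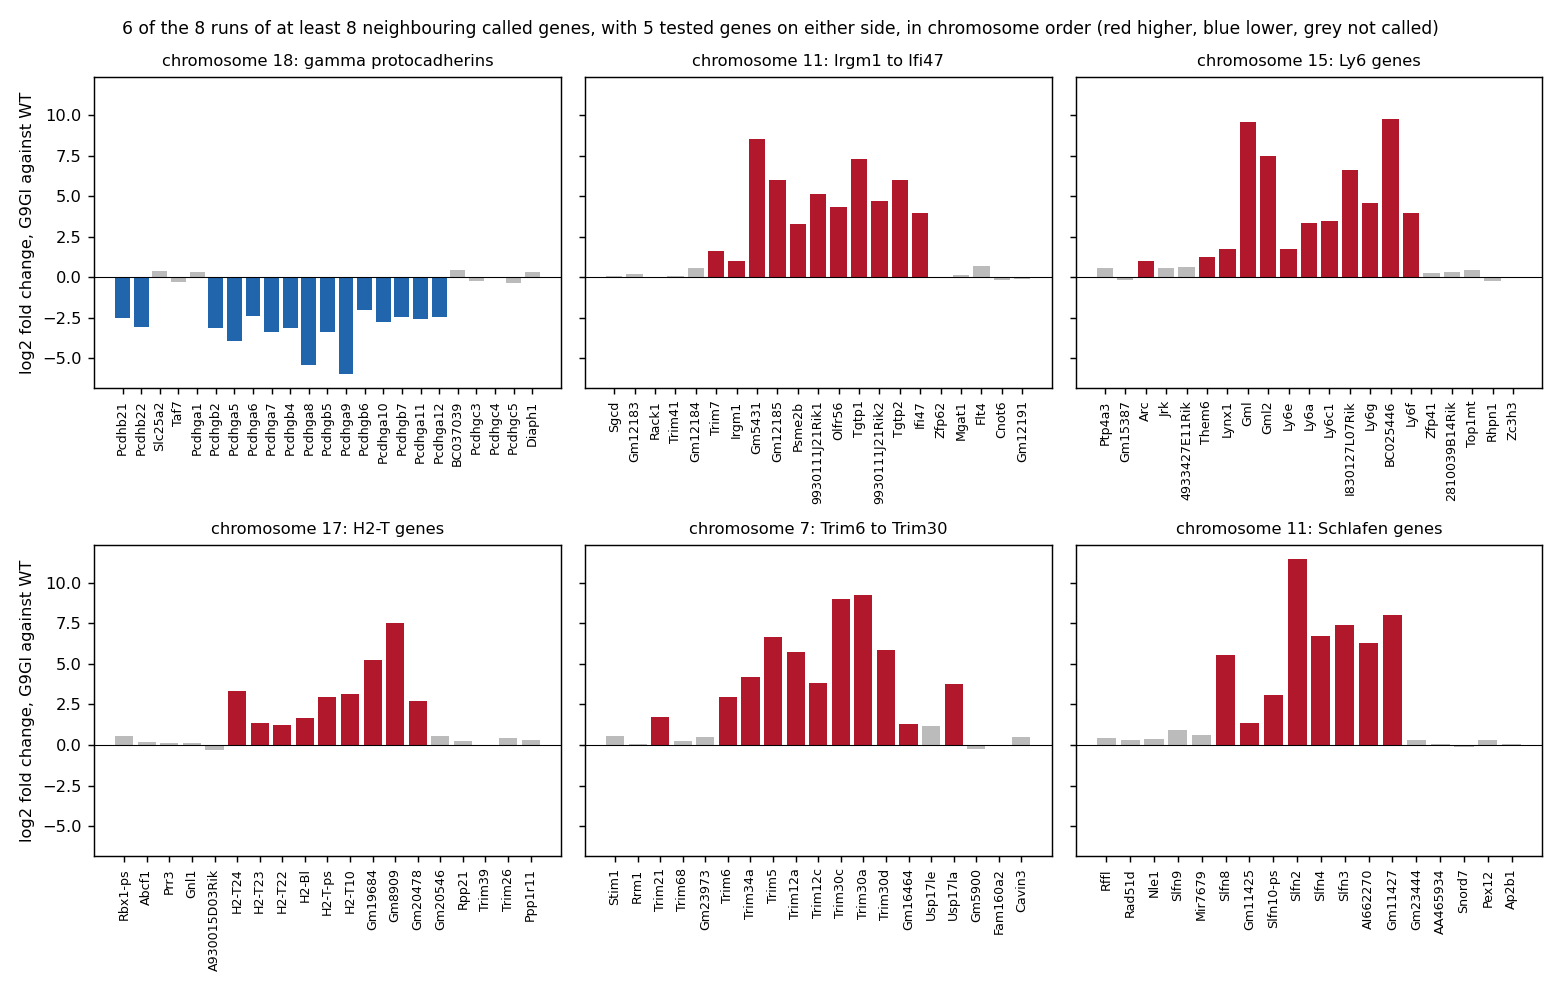
Log2 fold change in G9Gl against WT (bars, vertical axis) of tested genes in chromosome order for 6 of the 8 runs of at least 8 genes (not the Serpinb and Pcdhb runs, which tie with the Schlafen run at 8) and 5 tested genes on either side, red for called higher, blue for called lower and grey for not called. Most genes beside the runs are grey, and bars of genes with 0 counts in WT depend on the prior count of the fit.

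Families defined by the letters of their symbols repeated this in part, since they overlap the lists above. Among members that passed the filter without G9Gl, 6 of 6 Gbp, 8 of 10 Ifi, 3 of 5 Serpinb and 4 of 6 Ccl genes were higher. Of 40 Trim genes that passed without G9Gl 9 were higher and none lower. Lower were 6 of 7 Pcdhb genes and 8 of 8 Pcdhga genes that passed without G9Gl and without WT.

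A small shift covered whole chromosomes. The median log2 fold change over the 1069 tested genes of chromosome 1 was -0.26, with all 17 windows of 10 Mb that held at least 20 tested genes below 0. Chromosome 16 had a median of -0.20 (all 7 windows below 0) and chromosome 19 of -0.17 (all 6 windows below 0). Chromosome 14 stood at -0.07, with all 8 windows below 0 as well (-0.16 to -0.02), and the other autosomes and the X chromosome lay within 0.06 of 0. The 23 tested mitochondrial genes had a median of -0.33, with 87.0% below 0 and 2 called lower, but a median of 0.44 against S1S2. Against S1S2 the G9Gl medians were -0.14 for chromosome 1, -0.09 for chromosome 16 and -0.52 for chromosome 19. The shares of genes called lower on these 3 chromosomes were 3.55%, 3.33% and 4.52%, against 3.4% of all tested genes. Chromosome 18, with the protocadherin clusters, had the highest share lower of the autosomes, 8.81%. The highest window median was 0.38, on chromosome 6.

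**Figure D5:**
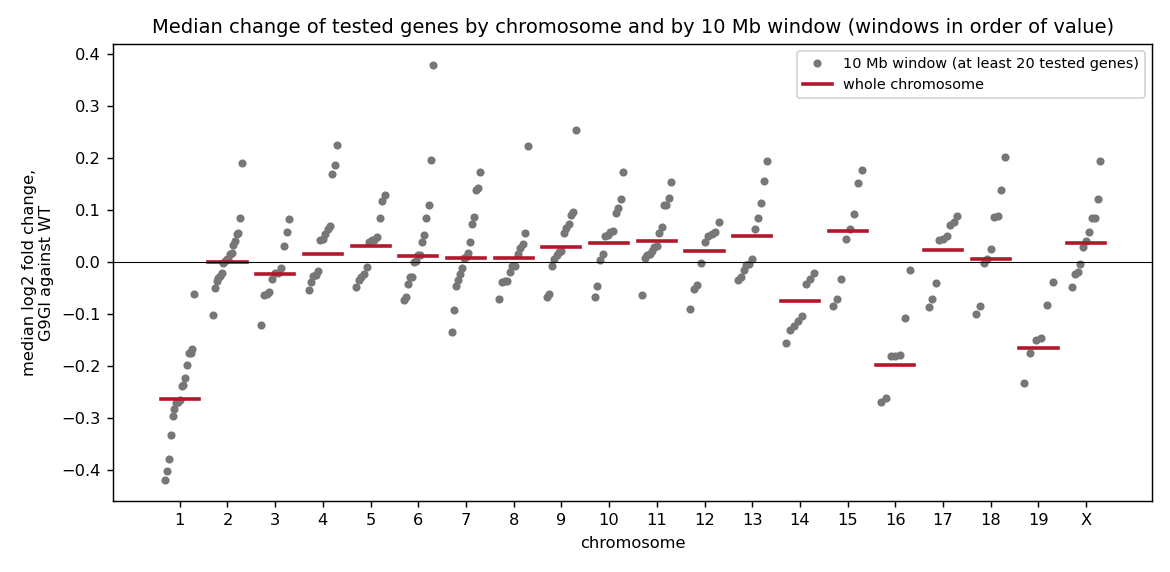
Median log2 fold change in G9Gl against WT over the tested genes of each chromosome (red line) and of each 10 Mb window with at least 20 tested genes (grey points, in order of value within a chromosome). Chromosomes 1, 16 and 19 lie below 0 as a whole, at -0.26, -0.20 and -0.17.

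Among genes of growth and core metabolism none of 30 mitosis genes (median -0.16), 31 DNA replication genes (median -0.06), 11 cell cycle inhibitors (median -0.04) or 78 cytosolic ribosomal protein genes (median -0.22) was called. Of all tested genes over 100 CPM in WT, 0.69% were called higher and 0.604% lower. Summed levels were lower in G9Gl than in WT for mitosis genes (7612 to 8063 CPM in WT against 6529 to 6914 CPM in G9Gl, with 23 of 30 genes not overlapping) and for ribosomal protein genes (48374 to 50116 against 41565 to 43727 CPM, with 65 of 78 not overlapping), where 52.8% of all tested genes did not overlap. Mki67, a marker of cycling cells, was at 992 and 841 CPM, Top2a at 1370.5 and 1161 CPM and Kif11, a mitotic kinesin, at 348 and 237 CPM in WT and G9Gl. Anln was at 474 and 449 CPM. Of the replication genes Rrm1 was at 426 and 445 CPM, Mcm4 at 324 and 273 CPM, Mcm5 at 315 and 281 CPM and Mcm6 at 336 and 279 CPM. The inhibitor Cdkn2a was at 318 and 380.3 CPM, Cdkn1b at 61.1 and 44.4 CPM, Rbl1 at 102 and 98.9 CPM and Rbl2 at 58.6 and 57.2 CPM. The ribosomal genes Rpl4, Rplp0, Rpsa and Rps2 differed by -0.16, -0.13, -0.19 and -0.00 on the log2 scale.

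Of 28 tested p53 targets 4 rose and none fell (median 0.38), or 14.3% higher against 6.77% of all tested genes. Eda2r was at 7.88, 6.64 and 9.67 CPM in WT and 29, 23.7 and 24.1 CPM in G9Gl (log2 change 1.67 ± 0.18 SE, adjusted p 6.55e-09), Trp53inp1 rose from 7.43 ± 1.34 to 23.6 ± 4.39 CPM, Pmaip1, encoding the apoptosis factor Noxa, from 14.7 ± 2.47 to 31.1 ± 2.39 CPM and Perp from 0.0646 ± 0.0662 to 0.381 ± 0.101 CPM. Perp was not called without WT-1, WT-3 or G9Gl-1 (adjusted p 0.0134 to 0.0158). In cholesterol synthesis Hmgcs1 and Idi1 fell, the latter from 45.5 ± 1.57 to 22.6 ± 3.11 CPM (log2 change -1.01 ± 0.11 SE, adjusted p 2.29e-08), among 24 tested genes whose median was -0.56, the lowest of the metabolic lists. Idi1, with 23.6% of its words shared, was not called without WT-1, G9Gl-1 or G9Gl-3 (log2 change -0.99 to -0.95). No gene of serine and one-carbon metabolism was called among 22 (median -0.04), with Phgdh at 410.4 and 393 CPM, Psat1 at 658 and 446 CPM, Shmt2 at 450.1 and 434 CPM and Atf4 at 623 and 603 CPM. Among 24 Nrf2 targets Gstm2 rose from 11.8 ± 1.09 to 31.9 ± 2.41 CPM and Gsta4 fell from 11.2 ± 1.16 to 4.11 ± 0.254 CPM (median 0.04). Each made up 4.17% of the list, against 6.77% higher and 3.4% lower of all tested genes. The remaining lists had few tested members, with medians of 0.21 for Mage genes, -0.17 for blood markers and 0.17 for pluripotency markers, where Nanog was at 0.405 and 0.539 CPM and Klf2 at 5.07 and 4.81 CPM.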

How the data were processed

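RNA was sequenced from 3 libraries each of WT, S1S2 and G9Gl MEFs. According to the methods, the authors removed adapters from reads of strand-specific libraries, aligned them with STAR 2.5.2b to GRCm38 under multimapper settings, and counted genes and repeats with TEtranscripts, and the deposited values are these raw counts per gene. Their annotation release and strand setting are not given in the sources used here, so genes with close copies and overlapping or antisense genes are uncertain. Of 47937 genes, 47310 were matched by identifier to GENCODE M21, which gave symbols and positions. Libraries held 21319778 to 32157623 counts.

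Counts were filtered with filterByExpr (15540 genes), scaled by TMM and fitted over all 9 libraries with glmQLFit and glmQLFTest of edgeR 4.0.16 in R 4.3.3, without a replicate term. The biological coefficient of variation was 5.36%. The SE beside a log2 change is not from the fit. It was computed from the spread of log2 CPM, with a prior count of 2, over the 3 libraries of each genotype. The prior count narrows it for genes with few counts. P-values were adjusted over all tested genes by the Benjamini-Hochberg method, at 0.01 with a fold of at least 2. A floor of 3 counts per library marked genes as not detected, and counting intervals are exact at 95%. Bounds and intervals cover counting error only, since reads carried no molecular identifiers and do not stand for single molecules. Sharing of sequence was the share of a gene's 75-base words found in another annotated gene. The steps were tested on simulated data in which only genes above a count limit were changed and all genes had the same spread. Calls at low counts were not covered by that test.

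The members and the 48 gene lists were chosen with earlier results of these data known. Genes were named by rule as the H3K9 methyltransferases, up to 4 called members of each list with the smallest adjusted p (the highest tested members where none was called), the 12 genes per kilobase highest among those switched on and off, the 8 called genes with the largest rise and fall in CPM, and the genes of the 6 longest runs (of 3 runs tied at 8 genes, the first in chromosome order). Any gene given outside this rule, such as Isg15, Bgn, Afp, Casp1, Tbx1 or Lama3, was chosen after its values were seen. Alternatives were DESeq2 1.42.0, other scalings, filters and thresholds, fits on 6 libraries or with a replicate block, and leaving out each library. Repeats were not analysed here. Tested genes that would fail the filter without the libraries of G9Gl, or without those of WT, were counted apart, a choice made after seeing the data. Results for a few genes are not reported here.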

Additional observations from a re-analysis of the deposited data

How the results depend on the processing

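Of 3564 values recomputed under the alternatives 3484 kept their side of the threshold or stayed within 1.5 times. Among these values, none of 2437 log2 fold changes of named genes reversed direction with a call in either fit. The remaining values are counts and have no direction. The count of called genes was 1515 with DESeq2, 1583 with library size alone, 1896 with no filter, 1532 with only the 6 libraries fitted and 1515 to 1599 on leaving out 1 library. It fell to 809 (549 higher, 260 lower) with at least 10 counts required in each of 6 libraries, which removes genes silent in 1 genotype, and to 1045 (290 lower) when glmTreat tested against the 2-fold limit itself. Genes switched on numbered 36 at a floor of 0 counts, 200 at 10 counts, 172 at a level of 0.5 CPM and 62 at 2 CPM, and genes switched off 12, 63, 49 and 14. Runs numbered 38 with at least 4 genes. The same replicate numbers did not pair the libraries (correlations of their deviations -0.02, 0.12 and 0.02, and not every library was closest to its own number), and with a replicate block 1568 genes were called, with 1559 genes in common with those reported.

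Counts over the lists that moved by more than 1.5 times were small. On leaving out 1 library the germline list had 1 to 2 lower, Rhox genes 1 to 2 higher, bone and fat regulators 2 to 4 lower (4 also with library size alone), proteoglycans 0 to 1 higher, metalloproteinases 1 to 3 lower, integrins and laminins 0 to 2 lower, Notch genes 0 to 1 higher, cell cycle inhibitors 0 to 1 higher, cholesterol synthesis 1 to 2 lower, serine metabolism 0 to 1 higher and Nrf2 targets 1 to 2 higher. Serine metabolism had 1 lower with library size alone or only the 6 libraries, where REST genes also had 1 lower and chemosensory receptors 0 lower, and serpins had 0 lower with DESeq2; the cause was not tested. An alternative chosen after seeing the data left out called genes with over 10% of 75-base words shared, which by construction removes members of close families: 1346 genes remained called, with 10 GTPases, 4 prolactins and 1 aldo-keto reductase higher, and 3 imprinted, 1 IGF, 8 protocadherin, 3 zinc finger, 0 chemosensory and 1 cholesterol gene lower. Of 244 named genes 11 lost the call under at least 1 alternative. Tdrd7, Adamts1, Itga3, Idi1, Thbs1, Rnf213 and Irgm1 slipped under the 2-fold limit at log2 sizes of 0.91 to 0.99 on leaving out 1 library (Itga3 and Thbs1 for WT-3, Rnf213 for G9Gl-1, Tdrd7 for WT-2 or G9Gl-1, Adamts1 for WT-1, WT-2 or G9Gl-1, Idi1 for WT-1, G9Gl-1 or G9Gl-3, and Irgm1 for WT-1, WT-3 or G9Gl-1), and Perp, H2-Bl, Gm20478 and Gm16464 went to adjusted p of 0.0106 to 0.0568, Perp without WT-1, WT-3 or G9Gl-1, Gm20478 and Gm16464 without WT-1, and H2-Bl without any 1 library, with DESeq2 (0.0324), with library size alone (0.0106) and with the replicate block (0.0133). Tdrd7 and Irgm1 also came under the limit with library size alone. Depth limits values under about 0.1 CPM, which rest on 3 counts or fewer.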

Other observations

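Some shorter runs of neighbouring genes, chosen after their values were seen, lie outside the lists. The Naip genes, which encode receptors for bacterial proteins, rose side by side on chromosome 13, with Naip2 rising from 0.202 ± 0.0426 to 25.6 ± 2.34 CPM (log2 change 6.95 ± 0.15 SE, adjusted p 8.22e-15), Naip5 from 0 counts to 2.14, 1.54 and 1.5 CPM and Naip6 from 0.0213 ± 0.0185 to 1.69 ± 0.424 CPM. Reads of these genes may be split, since 23.8% of the 75-base words of Naip5 are shared. The carboxylesterase genes Ces2e, Ces2f and Ces2g rose together on chromosome 8, with Ces2e going from 0.087 ± 0.0754 to 4.09 ± 0.305 CPM (log2 change 5.51 ± 0.50 SE, adjusted p 4.11e-10). Apol genes formed a run of 5 on chromosome 15, where Apol9b rose from 6.5 ± 0.739 to 80.9 ± 9.6 CPM (log2 change 3.64 ± 0.13 SE, adjusted p 1.00e-14). Raet1d and Raet1e, which encode ligands of the NKG2D receptor of natural killer cells, rose from 0.0103 ± 0.0178 to 4.5 ± 0.288 CPM and from 0.332 ± 0.137 to 5.25 ± 0.55 CPM, and 44.1% of the words of Raet1d are shared. On chromosome 9, Plscr2 rose from 7.97 ± 1.04 to 42.7 ± 2.02 CPM and Plscr4 from 0.255 ± 0.089 to 1.26 ± 0.235 CPM, both of the phospholipid scramblase family. Lower neighbours were Arsi, Camk2a and Pdgfrb on chromosome 18, with Camk2a at 1.08, 1.39 and 1.22 CPM in WT and 0.421, 0.216 and 0.326 CPM in G9Gl (log2 change -1.92 ± 0.25 SE, adjusted p 5.65e-05). All adjusted p are from the quasi-likelihood test of edgeR.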
